A study of Mus musculus with 4 samples.

Results

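Expression of the interleukin-6 (IL-6) cytokine family was examined in mouse primary chondrocytes, the matrix-producing cells of cartilage. The 10 member genes were the cytokines Il6, Lif, Il11 and Clcf1, the receptor subunits Il6st, Il6ra, Lifr, Osmr and Il11ra1, and the feedback inhibitor Socs3. Members were chosen as the array probes whose accession is a RefSeq transcript of these genes, which gave 12 probes and 13 spots of the 55681 probes and 59305 spots that read transcripts, or 10 of 37042 genes. Of the members, 9 had 1 probe and Lifr had 3, and the Il6 probe was spotted 2 times.

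Chondrocytes came from 6-day-old littermates on the C57BL/6J background that carried 2 floxed Rela alleles. One genotype was Rela fl/fl alone, called control as in the labels, and the other was Prrx1-Cre; Rela fl/fl, labelled cKO, in which the Prrx1 promoter drives Cre in limb mesenchyme. Cells of each genotype were cultured for 3 days with 10 ng per ml TNF (tumour necrosis factor) or without it, and RNA of each of the 4 conditions was hybridised to 1 array. There is thus no replicate, no difference has a test, and how many animals each culture came from is not given in the sources used here. The design asks how TNF changed expression in each genotype and how the genotypes differed with and without TNF.

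Most IL-6 family cytokines signal through receptor complexes that contain gp130, the protein encoded by Il6st. Cytokine binding activates Janus kinases (JAK) bound to the receptor, which phosphorylate STAT3, and STAT3 in turn drives transcription of genes that include Socs3. IL-6 is known as an inflammatory cytokine that chondrocytes make in arthritic cartilage, and TNF is a well-known inducer of Il6 through NF-κB, the transcription factor whose p65 subunit is encoded by Rela.

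Values below are the deposited spot intensity divided by the 75th percentile of the same array, so that a signal of 1 is that percentile (590 to 634 intensity units). Levels of different probes are not comparable. The software of the scanner marks each spot as well above background or not, and 50.9% to 58.1% of all probes were so marked per array. A log2 difference of at least 1 (2-fold), with the brighter array well above background, is called. Dim probes without this mark were set to the lowest marked signal of their array (0.0296 to 0.0524) where they lay under it, and a difference from such a probe is a bound. The spread between spots of 1 array was measured on 123 probes with 10 spots. For the difference between 2 single spots it was 0.28 on the log2 scale at signals under 0.25, 0.12 from 0.25 to 2, and 0.08 above 2. The value for signals under 0.25 rests on 7 probes. This measure is called the technical spread, and it says nothing about the spread between cultures. Some spots lay in patches, where 3 or more neighbouring spots were bright on that array alone. The spot itself did not have to be bright. Patches held 1.04% to 10.7% of the spots per array.

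Signal of the targeted gene Rela was 28.3 without and 34.7 with TNF in control cells, and 33.9 and 40.2 on the cKO-labelled arrays. It was not lower on the cKO-labelled arrays, so the deletion is not visible in this signal, and the arrays are named by their label. Whether the Rela probe lies in the deleted part was not tested. The NF-κB target Nfkbia was higher with TNF by 1.51 on the log2 scale in control cells and by 0.87 on the cKO-labelled arrays, and the target Tnfaip3 by 1.78 and 0.51. Between the arrays with TNF, they differed by -0.70 and -1.34, the latter called lower on the cKO-labelled array. All 10 chondrocyte markers were well above background on all 4 arrays. Their summed signal, most of it from the Col2a1 and Comp probes and meant only for comparing the same sum between arrays, was 1615 without and 1540 with TNF in control cells, and 1277 and 1305 on the cKO-labelled arrays. Of 9 leukocyte markers on the array, 6 were well above background on each array, and the pan-leukocyte gene Ptprc was not on any. The summed leukocyte signal was 37.8 to 46.3 per array, most of it from the Itgam probe.

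The Il6 promoter is shown because Il6 was the member with the largest differences, and the Socs3 promoter because Socs3 is the member that reports on STAT3 signalling. Both are the 250 bases before the RefSeq transcription start in GRCm38.p6, written 5′ to 3′ on the strand of the gene. Il6 lies on the plus strand at chr5:30012864-30013113, and the capitals mark a match to the NF-κB consensus. Socs3 lies on the minus strand at chr11:117969367-117969616, and the capitals mark a match to the STAT motif TTCNNNGAA.
Il6: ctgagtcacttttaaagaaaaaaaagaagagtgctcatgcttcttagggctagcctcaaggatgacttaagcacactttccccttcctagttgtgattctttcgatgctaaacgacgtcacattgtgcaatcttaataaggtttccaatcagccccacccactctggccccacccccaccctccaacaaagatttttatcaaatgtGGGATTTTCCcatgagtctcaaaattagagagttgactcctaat
Socs3: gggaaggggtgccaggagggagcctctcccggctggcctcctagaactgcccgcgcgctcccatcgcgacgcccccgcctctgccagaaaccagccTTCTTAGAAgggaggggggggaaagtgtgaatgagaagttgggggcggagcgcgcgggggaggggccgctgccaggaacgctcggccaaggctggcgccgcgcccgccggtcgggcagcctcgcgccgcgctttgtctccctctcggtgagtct
The NF-κB match of Il6, GGGATTTTCC, begins 44 bases before the start, and the STAT match of Socs3, TTCTTAGAA, begins 154 bases before it. Both strands were searched in windows of 300 bases that also hold 50 bases after the start. Such windows held the NF-κB consensus in 4.51% and the STAT motif in 8.30% of 32851 mouse promoters. Among 12 promoters of 9 members, 1 held the NF-κB consensus (Il6) and 1 held the STAT motif (Socs3), and Clcf1 had no entry. A match is a description of the letters and not a binding site.

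Il6 was well above background in both spots in control cells with TNF and in no more than 1 spot on each of the other 3 arrays. Its 2 spots, which lie 161 rows apart on the array, had intensities of 237 and 241 in control cells with TNF. They had 16.5 and 8.25 in control cells without TNF, 10.2 and 5.43 on the cKO-labelled array without TNF, and 10.0 and 24.7 on the cKO-labelled array with TNF. Of these 6 dim spots, the brightest, on the cKO-labelled array with TNF, was the single one well above background. Both spots of control cells with TNF were therefore brighter than every Il6 spot on the other arrays. The 2 spots of an array read the same RNA and are not replicates of a condition. As mean signals, Il6 was at 0.387 in control cells with TNF, against 0.0190 without TNF and 0.0117 and 0.0267 on the cKO-labelled arrays without and with TNF.

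With TNF, Il6 was at least 7.38-fold higher in control cells (log2 difference of at least 2.88). With TNF, it was at least 13.1-fold lower on the cKO-labelled array than in control cells (log2 difference of -3.71 or lower). No fold is given for TNF on the cKO-labelled arrays or for the genotypes without TNF, because on neither array were more than 50% of the Il6 spots well above background. On the cKO-labelled array with TNF this was so for 1 of 2 spots. No Il6 spot had a bright neighbour on any array. Both calls use the same array, that of control cells with TNF, and are not independent of each other. With the normexp background correction, which adds an offset of 50 to every intensity, the bounds came to 1.75 and -1.78, and both calls remained.

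Il6 was compared with 56 other genes with a symbol that were well above background in control cells with TNF only and outside patches. Their dim values on the other 3 arrays were raised to the lowest marked signal where they lay under it. Likeness to Il6 here thus rests mainly on the signal of 1 array and is no measure of the pattern over the others. The 5 nearest by Euclidean distance of the centred log2 values were the olfactory receptors Olfr1418, Olfr1366 and Olfr612, the cystatin Cst13 and Trim61, with signals of 0.157 to 0.344 in control cells with TNF. Unlike Il6, each of the 5 was read by 1 spot. On the array of control cells with TNF, the 3 olfactory receptor spots had 2 bright neighbours each, 1 short of a patch, and Cst13, Trim61 and Il6 had 0.

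Lif, which signals through a complex of Lifr and gp130, was dim throughout. Its signal was 0.0547 and 0.0350 in control cells without and with TNF, neither well above background, and 0.0970 and 0.0699 on the cKO-labelled arrays, both well above background. Lif was at least 1.77-fold higher on the cKO-labelled array without TNF and at least 1.90-fold higher with TNF, which is under the 2-fold limit. With the normexp background correction, these log2 differences of 0.83 and 0.93 were 0.14 and 0.25. On the cKO-labelled arrays, the difference with TNF was -0.47 on the log2 scale, within 2 technical spreads of 0.28. The Lif spot of control cells without TNF lay in a patch.

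Il11, whose protein binds Il11ra1 and gp130, was well above background on all 4 arrays and was highest on the cKO-labelled array with TNF. Its signal was 0.311 without and 0.396 with TNF in control cells, and 0.371 and 0.701 on the cKO-labelled arrays. The difference with TNF was 0.35 in control cells and 0.92 on the cKO-labelled arrays, with a technical spread of 0.12, and neither reached the limit. With TNF, Il11 was higher by 0.82 (1.77-fold) on the cKO-labelled array than in control cells, and without TNF by 0.25. Il6 and Il11 differed in opposite directions between the arrays with TNF, although Il11 was not called.

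Clcf1, a cytokine that signals through gp130 and Lifr, varied little. Its signal was 0.400 and 0.434 in control cells without and with TNF, and 0.479 and 0.528 on the cKO-labelled arrays. The differences with TNF of 0.12 and 0.14 were within 2 technical spreads. The cKO-labelled arrays were higher by 0.26 without and 0.28 with TNF, just past 2 technical spreads.

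**Figure D1:**
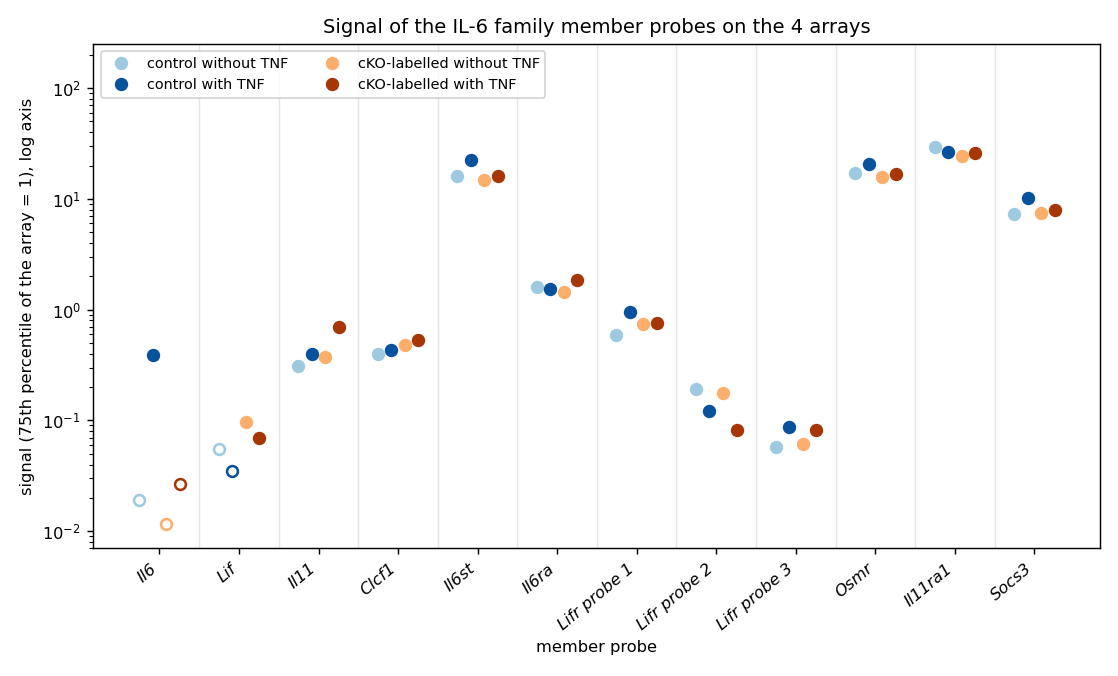
Signal of each member probe on the 4 arrays, on a log axis where 1 is the 75th percentile of the array. Each point is 1 array and open points are not well above background. Il6 is filled in control cells with TNF only (0.387), and the 4 points of most other probes lie close together.

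Among the receptor subunits, Il6st, Lifr and Osmr were each higher with TNF in control cells by more than 2 technical spreads, and none reached the 2-fold limit. Il6st encodes gp130, the subunit that most of the family shares. Its signal was 16.0 without and 22.2 with TNF in control cells, and 14.8 and 15.9 on the cKO-labelled arrays. The array of control cells with TNF was the highest, and the other 3 lay between 14.8 and 16.0. The difference with TNF was 0.47 in control cells and 0.11 on the cKO-labelled arrays, with a technical spread of 0.08. Between the genotype labels it was -0.48 with TNF and -0.12 without TNF.

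Osmr, the subunit that pairs with gp130 to bind oncostatin M, had the same order of arrays as Il6st. Its signal was 17.2 without and 20.7 with TNF in control cells, and 15.8 and 16.9 on the cKO-labelled arrays. The difference with TNF was 0.27 in control cells and 0.09 on the cKO-labelled arrays. Between the genotype labels it was -0.12 without TNF and -0.30 with TNF.

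Lifr, the subunit that pairs with gp130 to bind Lif, was read by 3 probes that did not give 1 direction. The brightest probe had a signal of 0.586 without and 0.947 with TNF in control cells, and 0.735 and 0.750 on the cKO-labelled arrays. Its difference with TNF was 0.69 in control cells and 0.03 on the cKO-labelled arrays. A second probe for the same transcript was dim, at 0.0576, 0.0870, 0.0607 and 0.0825 in the same order, with differences of 0.59 and 0.44. The probe for a different Lifr transcript was lower with TNF instead, at 0.194 and 0.122 in control cells and 0.177 and 0.0824 on the cKO-labelled arrays. Its differences with TNF were -0.66 and -1.11, the second being past the limit, and its spots on both arrays without TNF lay in patches. With the mean of the 3 probes in place of the brightest, the difference with TNF was 0.21 in control cells and -0.21 on the cKO-labelled arrays.

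Il6ra, the subunit that binds IL-6 itself, was the receptor gene with its highest signal on the cKO-labelled array with TNF. Its signal was 1.60 without and 1.54 with TNF in control cells, and 1.44 and 1.86 on the cKO-labelled arrays. The difference with TNF was -0.05 in control cells and 0.37 on the cKO-labelled arrays, with a technical spread of 0.12. The Il6ra spot in control cells with TNF lay in a patch.

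Il11ra1, the subunit that binds IL-11, was highest in control cells without TNF. Its signal was 29.4 without and 26.3 with TNF in control cells, and 24.6 and 26.1 on the cKO-labelled arrays. The genotype difference was -0.26 without TNF and -0.01 with TNF. Mouse Il11ra2 is nearly identical to Il11ra1 and was not found on the array by name, so the probe may read both.

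Socs3, which binds gp130 and blocks the kinases, was also highest in control cells with TNF. Its signal was 7.31 without and 10.14 with TNF in control cells, and 7.49 and 7.86 on the cKO-labelled arrays. The difference with TNF was 0.47 in control cells and 0.07 on the cKO-labelled arrays, with a technical spread of 0.08. Between the genotype labels it was 0.03 without TNF and -0.37 with TNF. The Socs3 spot in control cells with TNF lay in a patch with 3 bright neighbours, the smallest number that makes one, and the part of the patch in this value was not tested.

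Of the 9 members measured in the comparison of control cells with and without TNF, 1 was called higher (Il6) and 0 lower, beside 2.39% of 23406 genes called higher and 4.26% called lower. Their median difference was 0.35, against 0.01 over all genes tested. Of the 8 that were well above background on both arrays, Il11, Il6st, Lifr, Osmr and Socs3 were higher by more than 2 technical spreads. Il11ra1 was lower, with a difference of -0.16, just past 2 technical spreads, and Clcf1 and Il6ra were within 2. No share of all genes past 2 technical spreads is given for any comparison, so such counts do not set the members apart. Among the cell type markers, the chondrocyte median with TNF was -0.22, and Lyz2 (-1.42, in a patch) and Sp7 (-1.09 or lower) were called lower. Their part in the member differences was not tested.

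On the cKO-labelled arrays, none of 9 measured members was called with TNF, beside 0.759% of 24902 genes called higher and 4.26% called lower. Quantile normalization gave 308 genes higher and 893 lower in place of 189 and 1060. The median difference of the members was 0.09, against 0.06 over all genes tested. Only Il11 and Il6ra differed by more than 2 technical spreads, both higher, and the other 7 were within. The chondrocyte median was 0.05, and the markers Adgre1 (-3.47) and Emcn (-2.16 or lower), both in patches, were called lower, and their part was not tested. The scaling set the zero of this comparison, since the median of all genes was -0.06 in the authors' scaled values and -0.05 without scaling. The small positive differences of Lifr, Osmr, Il11ra1 and Socs3 turned negative under both (-0.08 to -0.01), as did those of Osmr, Il11ra1 and Socs3 with quantile normalization (-0.07 to -0.03) and that of Il6st in the authors' scaled values (-0.0030). Relative to the median of all genes, the differences of these 5 genes were between -0.03 and 0.05.

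Set side by side, the differences with TNF of Il6st, Lifr and Socs3 were 0.47, 0.69 and 0.47 in control cells and 0.11, 0.03 and 0.07 on the cKO-labelled arrays. The change on the cKO-labelled arrays minus the change in control cells was -0.36, -0.66 and -0.40 for these 3, and -0.18 for Osmr. For Lifr it is the value of the brightest probe, and it was -0.15 for the other probe of the same transcript and -0.44 for the probe of the different transcript. It was 0.57 for Il11, 0.42 for Il6ra, 0.25 for Il11ra1 and 0.02 for Clcf1. These contrasts use all 4 arrays, and with 1 array per condition they have no test.

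**Figure D2:**
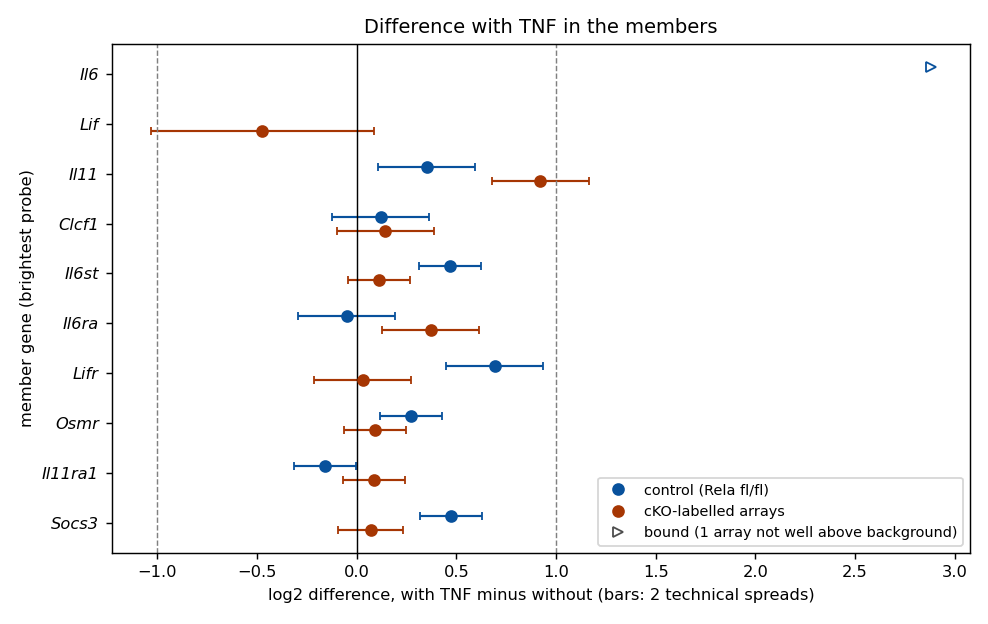
Log2 difference with TNF minus without for the brightest probe of each member, in control cells (blue) and on the cKO-labelled arrays (brown). Bars are 2 technical spreads within an array, open triangles are bounds and dashed lines mark the limit of 1. Il6 in control cells lies past the limit (at least 2.88), and Il11 on the cKO-labelled arrays lies just inside it (0.92).

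Without TNF, none of 9 measured members was called between the genotype labels, beside 3.53% of 24276 genes called higher and 4.14% called lower on the cKO-labelled array. The median difference of the members was 0.03, against 0.01 over all genes. Of the 8 measured on both arrays, Il11, Clcf1 and Lifr were higher and Il11ra1 was lower by more than 2 technical spreads, and 4 were within. For Lifr this held for the brightest probe (0.33) only. The other probe of the same transcript differed by 0.07 and that of the different transcript by -0.13, both within 2 technical spreads. The mean of the Lifr probes differed by 0.09. With TNF, all 10 members were measured, and 1 was called lower (Il6) and 0 higher, beside 3.07% of 24511 genes called lower and 1.17% called higher. The median was -0.15, against 0.06 over all genes. Il6st, Lifr, Osmr and Socs3 were lower and Il11, Clcf1 and Il6ra were higher by more than 2 technical spreads, and Il11ra1 was within. The Socs3 and Il6ra spots in control cells with TNF lay in patches. For Lifr the value with TNF is that of the brightest probe (-0.34). The other probe of the same transcript differed by -0.08, within 2 technical spreads, and the probe of the different transcript by -0.57. Cell type markers also differed between the genotype labels. The median difference of the 10 chondrocyte markers was -0.56 without and -0.38 with TNF, and Matn1, a cartilage matrix protein gene, was called lower in both (-1.85 and -1.18). The 3 osteoblast markers on the array had medians of 0.70 and 0.97, with Ibsp called higher without TNF (1.13) and Sp7 with TNF (at least 1.81). Of 7 fibroblast markers, Thy1 was called lower without TNF (-1.59) and Dpt in both (-1.62 and -1.16), the latter in patches. Of the leukocyte markers, Adgre1 was called higher (2.87) and Lyz2 lower (-2.11) without TNF, and of 5 endothelial markers Emcn was called higher (at least 1.33) without TNF, all in patches. The part of these markers in the member differences was not tested. Fewer cells of a type and less RNA per cell cannot be told apart in these bulk cultures.

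**Figure D3:**
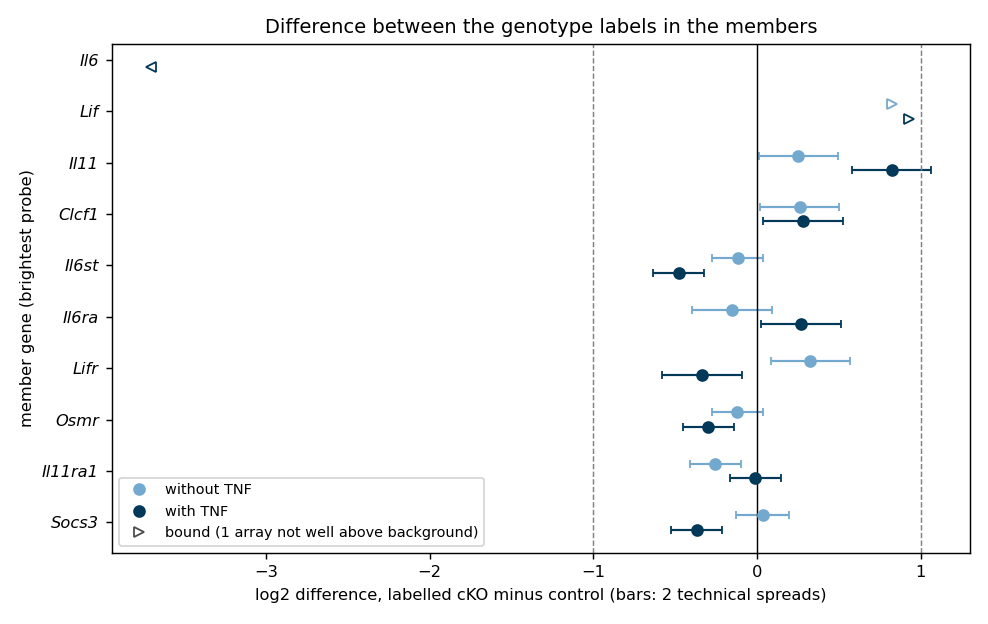
Log2 difference between the genotype labels, labelled cKO minus Rela fl/fl, for the brightest probe of each member without TNF (light) and with TNF (dark). Bars are 2 technical spreads, open triangles are bounds and dashed lines mark the limit of 1. Il6 with TNF is the single member past the limit (-3.71 or lower), and Il6st, Lifr, Osmr and Socs3 lie below 0 with TNF.

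Other genes of the pathway were taken from lists. Of 12 other IL-6 family cytokines and receptors, 11 were on the array, and Cntfr was the single gene called, in 2 of the 4 comparisons, where 2.39% of all genes were called higher and 3.07% lower. Cntfr, the receptor subunit for ciliary neurotrophic factor, had a signal of 0.0427 without TNF, not well above background, and 0.108 with TNF in control cells. On the cKO-labelled arrays it was at 0.0761 without and 0.0402 with TNF. It was at least 2.06-fold higher with TNF in control cells, and with TNF it was lower on the cKO-labelled array (log2 difference of -1.43). Cntfr was read by 1 dim spot, so its values have the wide technical spread of 0.28. The cytokines Ctf1, Cntf and Il27 differed with TNF by -0.19 to 0.10. Ctf1 had a spot in a patch in control cells with TNF and on the cKO-labelled array without TNF. Il31, Il27ra and Il31ra, named after their values were seen, were not well above background on any array.

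No signalling gene downstream of gp130 was called in the 4 comparisons, in which 0.759% to 4.26% of all genes were called per direction. With so few genes, counts of 0 do not set these lists apart. Among 12 kinases, STATs and adaptors, the median difference with TNF was 0.06 in control cells and 0.12 on the cKO-labelled arrays. Stat3 itself was at 14.5, 15.0, 14.4 and 15.3 in control cells without and with TNF and on the cKO-labelled arrays without and with TNF. On both arrays without TNF, the Stat3 probe had a spot in a patch. The kinase Jak1, the phosphatase Ptpn11 and the adaptor Shc1 were higher with TNF by 0.04 to 0.15 in control cells and by 0.21 to 0.36 on the cKO-labelled arrays. Among 9 other negative regulators the medians were 0.05 and 0.01, and Socs1, Socs7, Pias1 and Ptpn2 differed with TNF by -0.04 to 0.19. In control cells, Pias1 with TNF and Ptpn2 without TNF had a spot in a patch.

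Of 18 genes known to be induced through STAT3, 4 were called higher with TNF in control cells and 0 lower, beside 2.39% of all genes called higher and 4.26% lower, and the median of the list was 0.54. Outside patches, 3 of the 4 calls were left (Saa3, Bcl3 and Lcn2) among 13 list genes. With spots in patches left out, 0.559% of 17720 genes were called higher. Several of them are also known NF-κB targets. The acute-phase gene Saa3 was at 10.12 in control cells with TNF and was not well above background on the other 3 arrays. It was at least 179-fold higher with TNF in control cells, and with TNF at least 341-fold lower on the cKO-labelled array. The haemoglobin-binding protein gene Hp was at 2.10 and 14.5 in control cells and at 0.477 and 0.362 on the cKO-labelled arrays, and its spot in control cells without TNF lay in a patch. Bcl3, a nuclear IκB protein, was higher with TNF by 1.31 in control cells and by 0.36 on the cKO-labelled arrays.

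Lcn2, an iron-scavenging protein gene, differed with TNF under both genotype labels, by 1.36 in control cells and by 1.18 on the cKO-labelled arrays. It was the single STAT3-induced gene called with TNF on the cKO-labelled arrays, beside 0.759% of all genes called higher, where the median of the list was 0.32, and its spot there without TNF lay in a patch. Between the arrays with TNF, Saa3, Hp and Lrg1 were called lower on the cKO-labelled array, at -8.42 or lower, -5.32 and -1.84, beside 3.07% of all genes called lower and 1.17% higher, with a median of -0.22 for the list. Without TNF, Hp was the single list gene called lower (-2.14), beside 4.14% of all genes. The genes Timp1, Cebpd, Cebpb and Mcl1 were higher with TNF by 0.16 to 0.56 in control cells and by 0.28 to 0.46 on the cKO-labelled arrays. Without TNF, Timp1 in control cells and Cebpd on the cKO-labelled array had a spot in a patch.

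**Figure D4:**
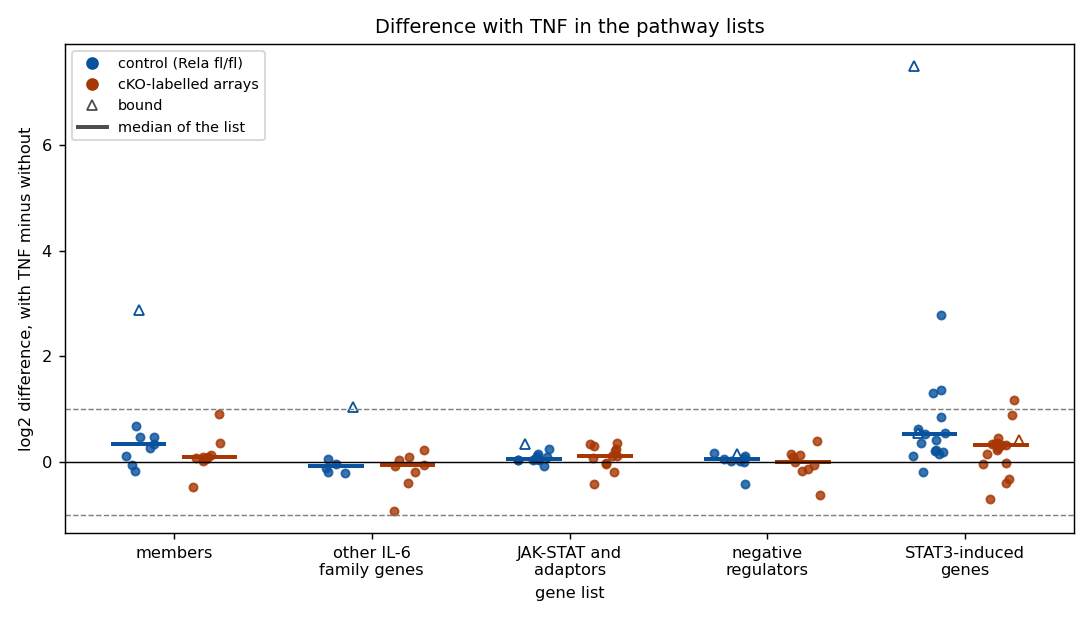
Log2 difference with TNF minus without in control cells (blue) and on the cKO-labelled arrays (brown) for the members and 4 pathway lists. Each point is 1 gene, open triangles are bounds, bars are list medians and dashed lines mark the limit of 1. The medians of the members are 0.35 and 0.09 and those of the STAT3-induced genes 0.54 and 0.32, with Saa3 the top point (at least 7.49).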

How the data were processed

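RNA of 4 chondrocyte cultures was labelled with 1 dye and hybridised to 1 Agilent mouse array per condition. Spot intensity was deposited as read by Agilent Feature Extraction 10.10.1.1 per the labels, with background subtracted and spatial trends removed within the array. They also deposited a table of values equal to these intensities times 1 factor per array (1.77 to 1.83), whose basis is not given in the sources used here. Its column medians were 82.4, 74.2, 88.5 and 69.4, for control without and with TNF and cKO-labelled without and with TNF. It served as an alternative.

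From the deposited intensity, log2 values were taken, outlier spots (138 to 225 per array, none of a member) were left out, and the 75th percentile of transcript spots was subtracted. Spots of a probe were averaged, and a probe was well above background where more than 50% of its spots were. Each gene was represented by its brightest probe on average. Unversioned accessions were looked up in RefSeq (GRCm38.p6), and 27229 of 55681 probes received a symbol. The array was annotated on mm9, and coordinates belong to the promoter table only. A spot lay in a patch where its window of 5 rows and 2 columns either side held 3 or more other spots at least 2-fold brighter than on each other array.

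With 1 array per condition no p-values were computed. The alternatives varied scaling, background, filter, probe summary, limit, patches and gene set. The members, lists, patch rule and named genes were chosen with earlier results of these data known. Named genes are the members, the list genes called outside patches, up to 4 others per list with the highest signal, and the 5 most like Il6. The values of 1 such list gene are not reported here. The technical spread by signal and the rule of at least 50% of spots were added after seeing the data. Python 3.11.15, numpy 2.4.6, pandas 2.3.3, R 4.3.3 and limma 3.58.1 were used.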

Additional observations from a re-analysis of the deposited data

Results flagged for a closer look

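Receptor genes differed in direction with TNF between the genotype labels in 2 cases, and with 1 array per condition neither difference was tested. Il6ra was higher with TNF by 0.37 on the cKO-labelled arrays and differed by -0.05 in control cells. The value in control cells was within 2 technical spreads, its spot with TNF lay in a patch, and it was 0.02 with the normexp background. Il11ra1 was higher with TNF by 0.0883 on the cKO-labelled arrays and differed by -0.16 in control cells. The value of Il11ra1 on the cKO-labelled arrays was -0.02 without scaling, -0.07 with quantile normalization and -0.02 in the authors' scaled values, so there the opposite directions were not seen.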

How the results depend on the processing

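The member differences were recomputed 318 times, and 292 of the values stayed within 1 technical spread of the reported one while 26 did not. Settings of the filter, probe summary or patches cannot move a member with 1 probe that is marked on both arrays and outside patches. The 292 thus includes values that could not move, and it overstates how stable the differences are. The sign changed for 15 of the 318 values, and none of these was a called value. These sign changes lay in TNF on the cKO-labelled arrays for Il6st, Lifr, Osmr, Il11ra1 and Socs3, in TNF in control cells for Il6ra and in the genotypes without TNF for Socs3. The bound for Il6 with TNF in control cells ranged from 1.75 with the normexp background to 2.91 with quantile normalization, and was 4.35 with the measured dim value in place of the bound. For Il6 between the arrays with TNF the values ranged from -3.86 to -1.78.

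When a signal well above background was required on both arrays, the 1 member called higher with TNF in control cells became 0, as did the 1 called lower on the cKO-labelled array with TNF, since Il6 was then not measured. At a 1.5-fold limit the members called higher were 2 for TNF in control cells (Il6 and Lifr), 1 for TNF on the cKO-labelled arrays (Il11), 1 between the genotypes without TNF (Lif) and 2 with TNF (Lif and Il11), beside 4.37%, 2.49%, 7.16% and 4.52% of all genes. With no filter, 1 member was called higher with TNF on the cKO-labelled arrays (Il6), beside 3.66% of all genes, and with any probe of a gene 1 was called lower there (Lifr), beside 5.93%. All other counts of called members were within 1.5 times the reported ones.

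Over all genes, the counts moved more. Leaving out spots in patches gave 99 higher and 119 lower with TNF in control cells in place of 560 and 998, 117 and 269 on the cKO-labelled arrays in place of 189 and 1060, 233 and 158 between the genotypes without TNF in place of 856 and 1004, and 199 and 166 with TNF in place of 288 and 752. Fewer genes were then tested, 17720, 19349, 18375 and 19121 in the same order. The shares called higher and lower were 0.559% and 0.672%, 0.605% and 1.39%, 1.27% and 0.860%, and 1.04% and 0.868%. Over the alternatives the counts ranged from 99 to 1351 and 119 to 2359, 60 to 1356 and 269 to 2316, 233 to 2330 and 158 to 1900, and 84 to 2142 and 166 to 1528, in the same order. The cause was not tested. Each condition has 1 array, and no paired analysis and no test was run. Leaving out an array removes its condition. Dim signals limit Il6 and Lif to bounds.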
